A study of Sus scrofa with 20 samples.

Results

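Uterine tissue of sows inseminated with the sperm-rich fraction of the boar ejaculate (FR1) was compared with that of sows that were not inseminated (CONTROL). The comparison took the 5 FR1 and the 5 CONTROL columns of the deposited count table, 10 of its 20 libraries, over every row that names a gene. Each library came from a different sow, and messenger RNA was captured by its poly-A tail and sequenced. All 20 sows were wild-type crosses of Large White and Landrace, and tissue was taken 6 days after the onset of estrus. FR1 sows were inseminated through the cervix with semen of 3 Pietrain boars that held the rich fraction alone, at the start of estrus and again daily while they stood in heat. CONTROL sows were not inseminated. The 2 remaining groups of 5 sows received the rich with the intermediate fraction (FR2) or all 3 fractions (FR3). The tracts were rinsed with saline, and the tissue was not separated into cell types. The labels do not tie a boar or an embryo check to a sow, so semen, the insemination itself and an early pregnancy cannot be told apart.

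In the pig, semen is deposited directly into the uterus, where sperm and the fluid around them meet the surface epithelium. The rich fraction carries most of the sperm, while the later fractions hold more of the fluid of the accessory glands. In the first week after mating the embryos reach the uterus and live unattached on histotroph, the mixture of proteins, lipids and ions that the epithelium and glands secrete under progesterone.

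Total counts per library were 39.9 to 50.9 M (mega-counts) in CONTROL and 36.4 to 53.9 M in FR1. Uterine identity genes were present in all 10 libraries, with the homeobox gene HOXA11 at 22.2 to 147 CPM (counts scaled to a common library size) and the estrogen receptor ESR1 at 98.2 to 379.8 CPM. CONTROL libraries were less alike than FR1 libraries, with a mean Spearman correlation across genes of 0.902 against 0.957. Among the FR1 libraries, FR1_1 and FR1_4 had the lowest summed level of 19 epithelial markers, 1985 and 2055 CPM against 3828, 5527 and 5207 CPM in FR1_2, FR1_3 and FR1_5. CPM values are scaled for library composition but not for gene length, so they compare libraries and not genes, and they are listed below in the order of the library numbers.

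The question of this comparison was which uterine genes differ after insemination with the rich fraction. In FR1 the chaperones HSPA5, HSP90B1 and CALR of the endoplasmic reticulum, the keratin KRT18, the sodium channel subunits SCNN1B and SCNN1G, the mucins MUC1 and MUC4 and the histotroph protein SPP1 fell. The hedgehog and Notch response genes GLI1 and HEYL, the Toll-like receptor partner TRIL, the basement membrane protein FREM1 and the matrix proteoglycan LUM rose. HEY1, of the same family as HEYL, fell, and the 18 Notch pathway genes tested had a median log2 fold change of 0.13. The calls of LUM, HEY1, SCNN1B and SCNN1G did not hold in every run that left out 1 library. SPP1 was far above FR1 in CONTROL_3 and CONTROL_4 alone, at 1354 and 749 CPM. Of 17745 genes tested, 458 were called at an edgeR adjusted p below 0.05, which is 2.58% of them. The calls were 108 higher (0.609% of genes tested) and 350 lower (1.97%), so 76.4% of the calls were lower. Over all genes tested the median log2 fold change was -0.034 and 53.1% were negative. A log2 change of at least 1 in size was seen in 82 of the higher and 266 of the lower calls, and of at least 2 in 34 and 175. Limma-voom called 120 higher and 65 lower, 35.1% lower.

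These calls rest on a spread estimated from all 20 libraries. With the 10 FR1 and CONTROL libraries alone edgeR called 0 of 16731 genes (2205 at an unadjusted p below 0.05, smallest adjusted p 0.193) and limma-voom 0 (2106 at an unadjusted p below 0.05). DESeq2 on the same 10 libraries called 169 higher and 476 lower. Leaving out FR1_1 and FR1_4 together also left 0 calls by edgeR, with 2410 genes at an unadjusted p below 0.05. An exact rank-sum test, which can reach no p below 0.00794 with 5 against 5, called 0 genes, with 1446 at an unadjusted p below 0.05.

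The controls above FR1 were not the same for every gene. In 461 genes (2.6% of those tested) the 2 groups did not overlap, with all FR1 libraries above all CONTROL libraries in 220 (1.24%) and below them in 241 (1.36%). Of the 350 lower calls, 115 (32.9%) had all 5 CONTROL libraries above every FR1 library, 178 (50.9%) had 4, 50 (14.3%) had 3 and 7 (2%) had 2. CONTROL_3 lay above every FR1 library in 348 of the lower calls and was the highest library in 187. CONTROL_5 lay above every FR1 library in 194 (55.4%) and was the highest in 23. The higher calls were more even, since each CONTROL library lay below every FR1 library in 96 to 106 of the 108. Without CONTROL_5 the counts were 475 higher and 899 lower, and without CONTROL_3 they were 42 and 108. Of the 458 calls, 87 (26 higher and 61 lower) were made in each of the 10 runs that left out 1 of the FR1 or CONTROL libraries.

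Among the genes described below, several were called only with certain libraries present. DMBT1 lost its call without CONTROL_4 and MUC20 and UBA7 theirs without CONTROL_3 or CONTROL_4, and each of the 3 lost it without any 1 of the FR1 libraries. The calls of LIF, RBP4, IL1A, SLC2A1, FABP3, TLR4, HEY1 and NECTIN4 were lost without CONTROL_3 and also without any 1 of the FR1 libraries. Those of NOTCH1, ITGA3 and SCNN1B were lost without CONTROL_3, FR1_1, FR1_2, FR1_4 or FR1_5, and that of CLDN7 without CONTROL_3, FR1_1, FR1_2 or FR1_4. CXCL16 lost its call without CONTROL_2, CONTROL_3, FR1_1, FR1_2, FR1_4 or FR1_5, and PKP3 without CONTROL_1, CONTROL_3, CONTROL_4 or the same 4 FR1 libraries. FGF7 lost its call without FR1_1, FR1_2, FR1_4 or FR1_5, MMP8 without any 1 of the FR1 libraries, and SCNN1G without any 1 of these or CONTROL_2, CONTROL_3 or CONTROL_4.

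**Figure D1:**
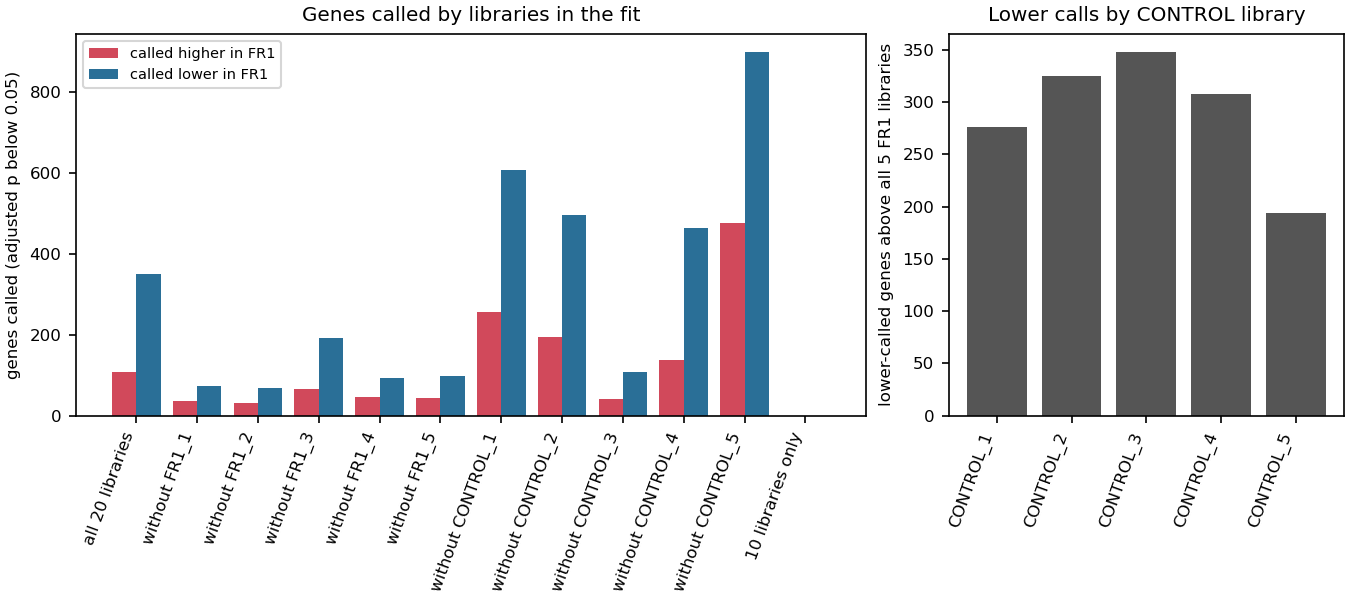
Left, the number of genes called by edgeR higher (red) and lower (blue) in FR1 than in CONTROL, with all 20 libraries, without each FR1 or CONTROL library in turn, and with the 10 FR1 and CONTROL libraries alone. Right, for each CONTROL library, the number of the 350 lower calls in which it lay above all 5 FR1 libraries. Calls ranged from 31 higher and 68 lower without FR1_2 to 475 and 899 without CONTROL_5, and were 0 with 10 libraries. The bar of CONTROL_5 is the lowest at right.

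Chaperones of the endoplasmic reticulum fell. The endoplasmic reticulum is where secreted and membrane proteins are folded, and its chaperones are raised when the load of such proteins grows. All 25 listed genes were tested, 7 fell and 0 rose, and 24 of 25 had a negative fold change. Over all genes tested 1.97% fell, 0.609% rose and 53.1% were negative, and the list counts below stand beside these shares. The median log2 fold change of the list was -0.58. In 6 of the 7 called genes the groups did not overlap, beside 115 (32.9%) of all 350 lower calls. These are bulk tissue values, in which fewer cells of a type and less RNA per cell cannot be told apart.

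HSPA5, the chaperone BiP that binds unfolded chains in the endoplasmic reticulum, was at 624, 742, 593, 751 and 397 CPM in CONTROL and at 287, 309.7, 299, 249 and 309 CPM in FR1. FR1 libraries lay within a narrow range, and the lowest control, CONTROL_5, was still above all of them (log2 fold change -1.09 ± 0.16, SE; edgeR adjusted p = 0.00762). HSP90B1, an HSP90 chaperone of the same compartment, was at 686, 565, 722, 759 and 492 CPM in CONTROL and at 345, 372, 319, 324 and 335 CPM in FR1. CALR, the calcium-binding lectin chaperone calreticulin, was at 767, 746, 695, 969 and 697 CPM in CONTROL and at 418, 403, 444, 422 and 445 CPM in FR1. Neither gene's groups overlapped, and CONTROL_4 was the highest library for both. They fell by 0.93 ± 0.15 and 0.86 ± 0.14 on the log2 scale (SE; edgeR adjusted p = 0.00762 for both).

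MANF, a secreted protein of the unfolded protein response, was at 132, 106, 117, 125 and 153 CPM in CONTROL and at 80.6, 59.5, 73.3, 78.7 and 82.6 CPM in FR1. CONTROL_5 was the highest library for MANF and the lowest control for HSPA5. The co-chaperone DNAJB11 (-0.79 ± 0.15), the membrane protein HERPUD1 (-0.86 ± 0.16) and MANF (-0.76 ± 0.15) also separated fully, with edgeR adjusted p-values of 0.0117, 0.0117 and 0.0165. HERPUD1, MANF and PDIA6 are named outside the rule for named genes, after their values were seen. PDIA6, a disulfide isomerase, fell by 0.82 ± 0.17, with CONTROL_5 at 135 CPM inside the FR1 range of 119 to 147 CPM. The stress sensors and their transcription factors did not pass. ATF6, EIF2AK3 and ERN1 were at -0.00 ± 0.19, -0.16 ± 0.20 and -0.31 ± 0.29. XBP1, the transcription factor that raises chaperone genes, was the 1 list member with a positive value, at 0.47 ± 0.22 (adjusted p = 0.275).

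The summed level of the list was 4439 to 7305 CPM in CONTROL and 3846 to 4348 CPM in FR1. Within FR1 it was 4084, 4182, 4197, 3846 and 4348 CPM, lowest in FR1_4 and FR1_1, the 2 libraries with the lowest epithelial sums. The epithelial sum was 5362 to 8432 CPM in CONTROL and 1985 to 5527 CPM in FR1, and its part in the fall of the folding genes was not tested. With 1 library left out at a time 5 to 11 members fell and the median stayed between -0.66 and -0.39. HSPA5, HSP90B1, CALR and DNAJB11 were called in all 10 of those runs. Without CONTROL_3 and CONTROL_4 3 members fell, without CONTROL_2, CONTROL_3 and CONTROL_4 5 fell, and without FR1_1 and FR1_4 0 fell, with medians of -0.39, -0.31 and -0.53. Secretory pathway genes carry folded proteins onward. Of 30 tested, SPCS3, a subunit of signal peptidase, fell by 0.63 ± 0.13 (adjusted p = 0.0174) and the median was -0.26. SPCS3 was the 1 member that fell, beside 1.97% of all genes tested. SPCS3 was not called without CONTROL_3, FR1_2 or FR1_5.

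**Figure D2:**
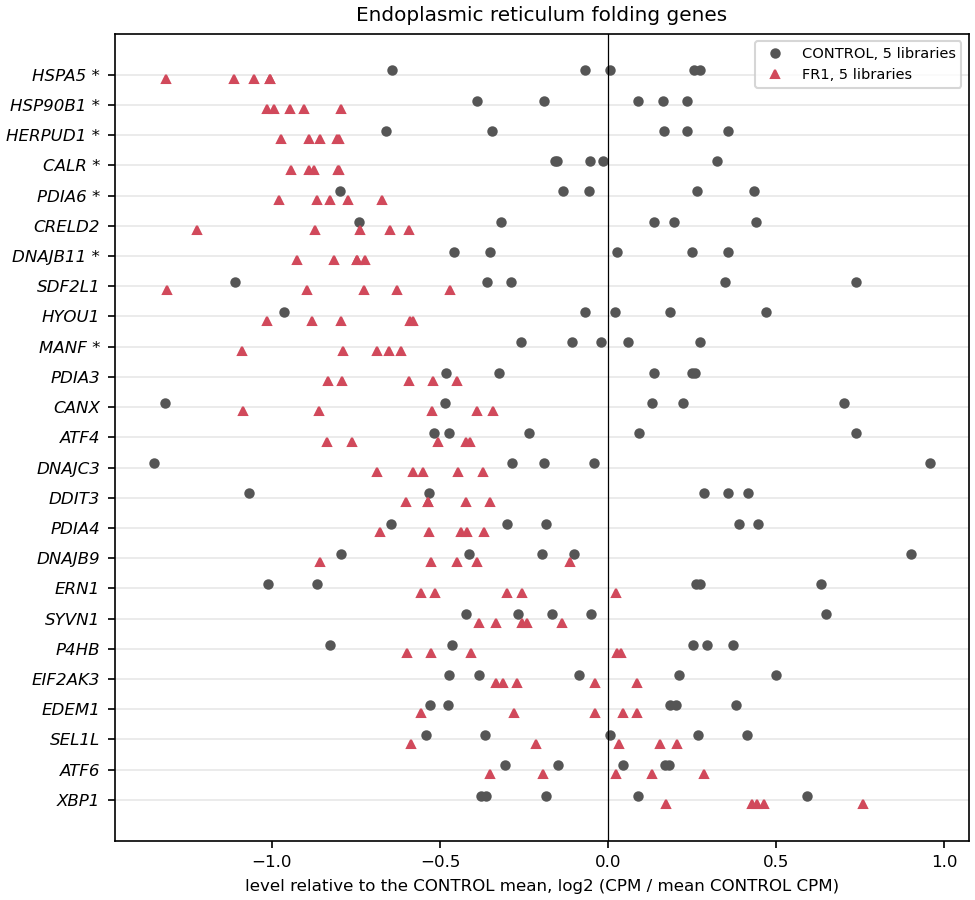
Levels of the 25 endoplasmic reticulum folding genes in each CONTROL (grey circles) and FR1 (red triangles) library, as log2 of CPM over the CONTROL mean of that gene, ordered by fold change; an asterisk marks genes called by edgeR. For HSPA5, HSP90B1, HERPUD1, CALR, DNAJB11 and MANF all FR1 libraries lie left of all CONTROL libraries, and XBP1 lies to the right.

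Epithelial markers fell, but not all of them. Of 19 uterine epithelium markers tested, 7 fell, 0 rose and 16 were negative, with a median of -1.06. KRT18, a keratin of simple epithelia, was at 379.6, 491, 318, 251 and 302 CPM in CONTROL and at 115, 129, 181, 114 and 131 CPM in FR1. All CONTROL libraries lay above all FR1 libraries (log2 -1.38 ± 0.22, edgeR adjusted p = 0.00762). MUC1, the mucin of the apical surface, was at 3.0, 55.0, 70.8, 89.0 and 17.4 CPM in CONTROL and at 3.19, 2.64, 2.4, 2.06 and 2.79 CPM in FR1 (log2 -4.17 ± 0.73, adjusted p = 0.011). CONTROL_1 lay inside the FR1 range for MUC1 while CONTROL_2 to CONTROL_5 lay above it.

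ELF3, an epithelial transcription factor, was at 35.5, 88.9, 177, 218 and 11.3 CPM in CONTROL and at 5.71, 11.2, 11.4, 9.33 and 16.9 CPM in FR1 (log2 -3.28 ± 0.58, adjusted p = 0.011). CONTROL_5 lay inside the FR1 range for ELF3. MAL2, a protein of apical membrane traffic, fell by 1.83 ± 0.38 (adjusted p = 0.0174) and was at -1.16 without CONTROL_3, still called, but was not called without FR1_1, FR1_2 or FR1_4. KRT8, the filament partner of KRT18, and KRT19, another keratin of simple epithelia, did not pass, at -0.54 ± 0.46 and 0.15 ± 0.54, and FOXA2, the transcription factor of uterine glands, was at 1.23 ± 0.55 (adjusted p = 0.232). For FOXA2 the controls were at 6.83, 20.2, 22.0, 13.6 and 93.9 CPM and FR1 at 86.0, 75.8, 48.8, 102 and 55.5 CPM, so CONTROL_5 stood inside the FR1 range and the other controls below it, and without CONTROL_5 it was called at 2.26 (adjusted p = 0.00626). KRT8 and KRT19 are given after their values were seen. Of 8 keratins tested KRT18 alone was called, 3 were negative and 5 positive, with a median of 0.12. The keratin sum was 1280 to 5750 CPM in CONTROL and 1120 to 3670 CPM in FR1. Without CONTROL_3 and CONTROL_4 1 epithelial marker fell, without CONTROL_2, CONTROL_3 and CONTROL_4 2 fell, and without FR1_1 and FR1_4 0 fell, with medians of -0.97, -1.02 and -0.89.

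S100 proteins, small calcium-binding proteins many of which epithelia express, had a negative value in 13 of 13 tested members, with a median of -0.88. S100A2 was at 294, 356, 332, 337 and 21.3 CPM in CONTROL and at 7.0, 19.6, 22.0, 7.33 and 26.2 CPM in FR1 (log2 -4.03 ± 0.60, adjusted p = 0.00762). CONTROL_1 to CONTROL_4 were alike and far above FR1, and CONTROL_5 was inside the FR1 range. S100A1 was at 111, 276, 165, 147 and 202 CPM in CONTROL and at 43.7, 42.5, 86.9, 34.2 and 56.2 CPM in FR1, without overlap (log2 -1.77 ± 0.27, adjusted p = 0.00762). Both calls held in every run with 1 library left out.

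Cell junction and anchoring genes fell in part. Of 28 junction and adhesion genes 4 fell and the median was -0.57. EZR, ezrin, which ties the apical membrane to actin, was at 597, 568, 735, 468 and 260.4 CPM in CONTROL and at 249, 255, 241, 273 and 282 CPM in FR1 (log2 -1.02 ± 0.20, adjusted p = 0.0144). CLDN7, a tight junction claudin, was at 325, 222, 322, 242 and 374 CPM in CONTROL and at 106, 129, 207, 135 and 195 CPM in FR1 (log2 -0.95 ± 0.22, adjusted p = 0.0282). CONTROL_5 was the lowest control for EZR, inside the FR1 range, and the highest for CLDN7, whose groups did not overlap. The nectin NECTIN4 and the desmosomal plakophilin PKP3 fell by 2.94 ± 0.74 and 1.08 ± 0.28, and NECTIN4 was at -1.92 and not called without CONTROL_3.

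Of 25 integrin and hemidesmosome genes 5 fell and 1 rose, and the median was -0.21, or 0.11 by limma-voom. COL17A1, the hemidesmosome collagen, was at 21.7, 32.2, 295, 1060.4 and 1.81 CPM in CONTROL and at 4.63, 1.23, 1.85, 2.22 and 1.28 CPM in FR1 (log2 -6.98 ± 1.26, adjusted p = 0.0117). Only CONTROL_5 lay inside the FR1 range for COL17A1, and without CONTROL_4 the value was -5.25, still called. ITGA3, an integrin subunit, fell by 2.23 ± 0.46 (adjusted p = 0.0174). The 1 member that rose was FREM1, a protein of the basement membrane zone, at 0.168, 1.1, 0.298, 0.273 and 0.949 CPM in CONTROL and 2.73, 6.17, 7.12, 3.64 and 5.41 CPM in FR1 (log2 3.17 ± 0.53, adjusted p = 0.00987). Every FR1 library was above every control for FREM1.

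The tolloid-like protease TLL2 was at 0.733, 72.5, 6.65, 1.05 and 4.98 CPM in CONTROL and at 0.168, 0.471, 0.24, 0.241 and 0.137 CPM in FR1. Its groups did not overlap, CONTROL_2 stood far above the rest, and the value went from -6.06 ± 1.08 (adjusted p = 0.011) to -3.71 without CONTROL_2, still called. TAGLN2, an actin-binding protein, was at 276, 377, 497, 474 and 302 CPM in CONTROL and at 141, 108, 162, 149 and 145 CPM in FR1, without overlap.

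**Figure D3:**
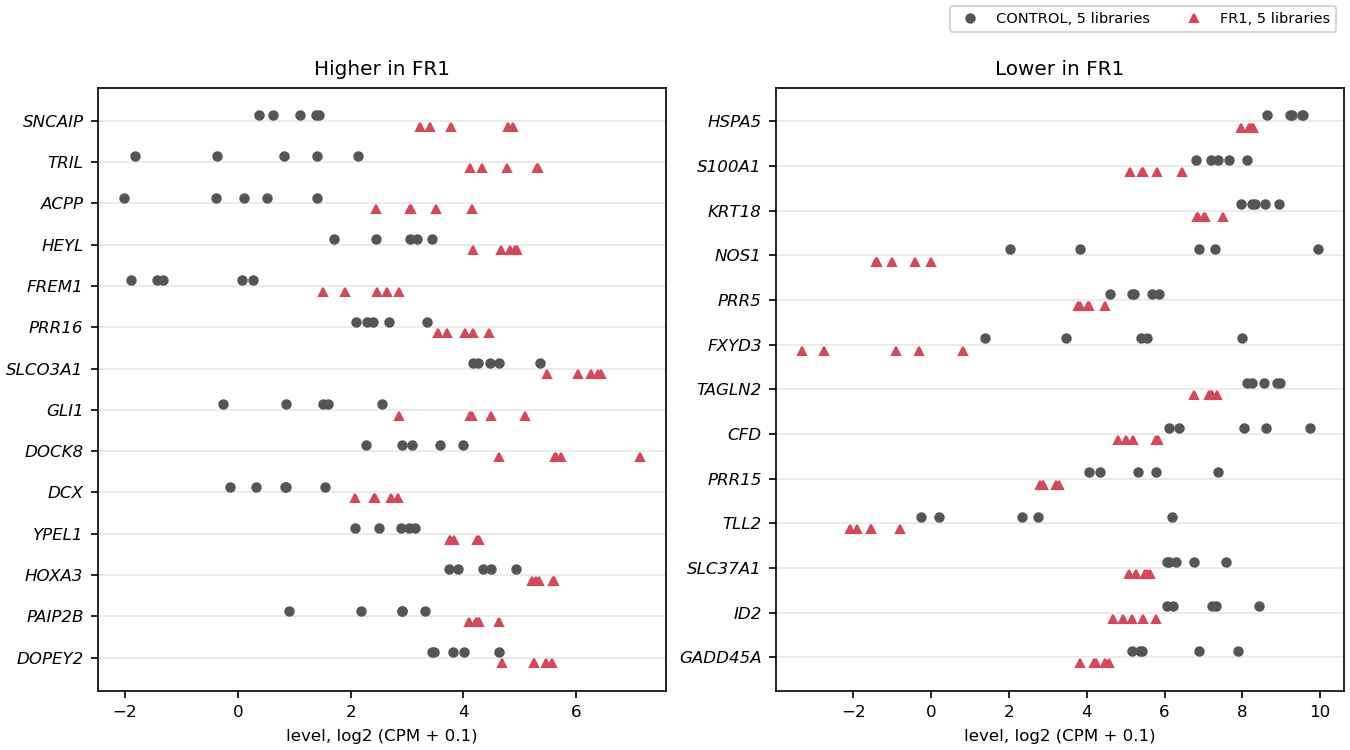
Levels, as log2 of CPM plus 0.1, of 14 higher and 13 lower genes of those with the smallest p among called, non-overlapping genes with a log2 change of at least 1 in size, in 5 CONTROL (grey circles) and 5 FR1 (red triangles) libraries. The choice fixes that the groups do not overlap; the controls of NOS1 and TLL2 spread over a far wider range than those of HSPA5, KRT18 and TAGLN2.

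Some sodium transport genes fell. Of 23 ion and water transport genes 4 fell and 0 rose, with a median of -0.16. FXYD3, which regulates the sodium pump, measured 11.0, 46.3, 256, 42.2 and 2.52 CPM in CONTROL and 0.048, 0.706, 0.436, 0 and 1.67 CPM in FR1 (log2 -6.98 ± 1.18, adjusted p = 0.00987). Controls spread widely but stayed above FR1, and without CONTROL_3 the value was -5.50, still called. ATP1B3, a beta subunit of the pump itself, was at 79.8, 149, 86.6, 122 and 132 CPM in CONTROL and at 52.2, 61.0, 68.5, 50.7 and 66.5 CPM in FR1, without overlap (log2 -0.93 ± 0.18, adjusted p = 0.013). SCNN1B and SCNN1G, subunits of the epithelial sodium channel, were called lower at -5.73 ± 1.39 and -5.08 ± 1.31. SCNN1B was at 3.1, 91.5, 42.0, 53.3 and 7.18 CPM in CONTROL and at 0.0959, 0.202, 3.33, 0 and 0.0546 CPM in FR1, where FR1_3 alone exceeded the lowest control, CONTROL_1, and without FR1_3 it was at -8.69, still called. AQP3, a water and glycerol channel, pointed the other way without passing, at 27.1, 23.2, 2.75, 55.2 and 301 CPM in CONTROL and 1158, 536, 369.5, 667 and 412 CPM in FR1 (log2 2.94 ± 0.80, adjusted p = 0.0549). All FR1 libraries were above all controls for AQP3, which is singled out after its values were seen.

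CYP24A1, the enzyme that inactivates vitamin D, was at 36.1, 12.8, 66.3, 45.0 and 0.278 CPM in CONTROL and at 0, 0.286, 0.174, 0.022 and 0 CPM in FR1 (log2 -8.24 ± 1.47, adjusted p = 0.011). CONTROL_5 again lay inside the FR1 range, and the call held in every run with 1 library left out, at -9.21 without FR1_2. It was the 1 called member of 14 tested vitamin D and calcium genes, whose median was -1.12. NOS1, the neuronal nitric oxide synthase, was at 14.2, 983, 156, 119 and 3.98 CPM in CONTROL and at 0.647, 0.891, 0.283, 0.395 and 0.273 CPM in FR1 (log2 -8.97 ± 1.46, adjusted p = 0.00813). All controls lay above FR1, over a wide range, and without CONTROL_2 the value was -7.18, still called.

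Histotroph is the secretion that feeds the embryos. Of 27 histotroph and receptivity genes 6 fell and the median was -1.11. The median was 0.19 with 0 called without CONTROL_2, CONTROL_3 and CONTROL_4. SPP1, a secreted phosphoprotein that binds integrins, was at 3.67, 11.6, 1354, 749 and 7.32 CPM in CONTROL and at 3.67, 3.18, 3.66, 3.89 and 4.02 CPM in FR1 (log2 -6.85 ± 1.27, adjusted p = 0.0117). CONTROL_3 and CONTROL_4 were far above the rest, CONTROL_1 was inside the FR1 range, and without CONTROL_3 the value was -5.73, still called. FGF7, a growth factor that acts on epithelial cells, measured 0.272, 398, 447, 3.44 and 1.09 CPM in CONTROL and 0.911, 1.5, 1.28, 0.681 and 0.656 CPM in FR1 (log2 -7.39 ± 1.51, adjusted p = 0.0165). It turned to 0.58 without CONTROL_2, CONTROL_3 and CONTROL_4. LIF, a cytokine of implantation in many mammals, was at 0.796, 14.1, 76.4, 6.27 and 0.996 CPM in CONTROL and at 0.552, 0.79, 0.174, 0.966 and 1.09 CPM in FR1 (log2 -4.78 ± 1.13, adjusted p = 0.0302). Without CONTROL_3 it was at -2.93 and not called.

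The retinol carrier RBP4 was at 4.27, 2210.5, 13053, 30.9 and 69.9 CPM in CONTROL and at 13.7, 22.0, 10.7, 31.1 and 12.5 CPM in FR1. The highest library, CONTROL_3, stood far above CONTROL_2, and CONTROL_1 and CONTROL_4 lay below or inside the FR1 range (log2 -7.42 ± 1.63, adjusted p = 0.022, and -4.97, not called, without CONTROL_3). Of 14 mucosal defence genes 6 fell and 13 were negative, with a median of -3.07, and 0 were called without CONTROL_3 and CONTROL_4, where the median was -1.42. MUC4, a membrane mucin, was at 26.9, 33.7, 879, 484 and 0.695 CPM in CONTROL and at 1.82, 2.67, 1.52, 0.461 and 4.89 CPM in FR1 (log2 -6.97 ± 1.35, adjusted p = 0.013). DMBT1, a mucosal scavenger protein, was at 23.7, 0.511, 7.5, 4178 and 0.301 CPM in CONTROL and at 0.168, 0.168, 0, 0.132 and 0 CPM in FR1. MUC4 kept its call in every run with 1 library left out and was at -5.94 without CONTROL_3, whereas DMBT1 went from -13.04 ± 2.81 to -6.29 without CONTROL_4. MUC20, another mucin, went from -7.86 ± 1.88 to -4.60 without CONTROL_4, and neither of these calls held there, nor without any 1 FR1 library.

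Some signalling genes rose. Of 14 hedgehog pathway genes 2 rose and 14 of 14 had a positive value, with a median of 0.80. Hedgehog proteins are secreted signals, in the uterus from epithelium to stroma, and GLI1 and PTCH1 are their direct target genes. GLI1, a transcription factor, was at 1.72, 5.8, 0.734, 2.75 and 2.94 CPM in CONTROL and at 33.9, 17.2, 17.7, 22.3 and 7.1 CPM in FR1, without overlap (log2 2.82 ± 0.50, adjusted p = 0.011). PTCH1, the hedgehog receptor, was at 17.3, 30.3, 31.0, 33.6 and 25.9 CPM in CONTROL and at 56.7, 79.5, 56.2, 46.2 and 36.9 CPM in FR1, also without overlap (log2 1.00 ± 0.25, adjusted p = 0.0386). IHH, the uterine ligand, did not pass, at 6.66, 6.08, 3.78, 14.3 and 111 CPM in CONTROL and 114, 74.3, 58.4, 189 and 83.4 CPM in FR1 (log2 1.87 ± 0.75, adjusted p = 0.178). CONTROL_5 lay with FR1 for IHH and the other controls lay below it, and IHH is named after its values were seen. GLI1 kept its call in every run with 1 library left out, and PTCH1 lost it without CONTROL_1, CONTROL_3, FR1_1, FR1_2, FR1_3 or FR1_4. Stromal fibroblast markers, whose sum was 1813 to 8743 CPM in CONTROL and 6378 to 14600 CPM in FR1, had 11 of 12 positive values, and their part in the hedgehog values was not tested.

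Of 18 Notch pathway genes 2 rose and 1 fell, with a median of 0.13. HEYL, a transcription factor that Notch induces, was at 5.36, 8.94, 3.14, 8.24 and 10.7 CPM in CONTROL and at 30.9, 30.1, 28.1, 25.1 and 17.8 CPM in FR1, without overlap (log2 1.86 ± 0.30, adjusted p = 0.00781). The receptor NOTCH1 was at 25.1, 38.3, 20.5, 31.2 and 51.7 CPM in CONTROL and at 62.7, 66.5, 61.2, 70.6 and 57.1 CPM in FR1, also without overlap (log2 0.93 ± 0.21, adjusted p = 0.0275). HEY1, of the same family as HEYL, went the other way, at 28.4, 13.2, 19.2, 15.2 and 6.07 CPM in CONTROL and 2.88, 6.95, 5.55, 5.33 and 6.69 CPM in FR1 (log2 -1.58 ± 0.37, adjusted p = 0.0285). CONTROL_5 was inside the FR1 range for HEY1. Of 22 Toll-like receptor signalling genes 1 rose and 1 fell, beside 0.609% and 1.97% of all genes tested.

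TRIL, a membrane partner of Toll-like receptors, was at 1.66, 2.53, 0.183, 0.671 and 4.28 CPM in CONTROL and at 40.0, 27.3, 17.3, 39.3 and 20.1 CPM in FR1 (log2 3.95 ± 0.59, adjusted p = 0.00762). Every FR1 library was above every control, and the value was 4.56 without CONTROL_5. TLR4, the endotoxin receptor, was at 1.76, 42.3, 94.9, 11.8 and 0.949 CPM in CONTROL and at 5.61, 2.78, 2.77, 1.49 and 1.61 CPM in FR1 (log2 -3.41 ± 0.84, adjusted p = 0.0368). CONTROL_1 and CONTROL_5 lay inside or below the FR1 range for TLR4, the value was -2.29 and not called without CONTROL_3, and it turned to 1.12 without CONTROL_2, CONTROL_3 and CONTROL_4. ID2, an inhibitor of helix-loop-helix transcription factors that BMP signals raise, was at 66.6, 161, 346, 149 and 73.8 CPM in CONTROL and at 30.5, 43.6, 54.5, 25.3 and 35.5 CPM in FR1, without overlap (log2 -2.07 ± 0.38, adjusted p = 0.0117).

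Further genes that rose differ in role. SNCAIP, which binds alpha-synuclein in neurons, was at 1.45, 2.04, 1.19, 2.6 and 2.52 CPM in CONTROL and at 27.6, 13.6, 10.6, 29.2 and 9.26 CPM in FR1. FR1_1 and FR1_4 were the highest libraries for SNCAIP. DOCK8, an activator of the GTPase CDC42 in leukocytes, was at 7.46, 4.7, 11.9, 8.36 and 15.8 CPM in CONTROL and at 49.0, 49.6, 24.7, 139.5 and 52.9 CPM in FR1 (log2 2.71 ± 0.48, adjusted p = 0.011, and 2.19, still called, without FR1_4, its highest library). The homeobox gene HOXA3 was at 14.9, 22.4, 13.3, 20.3 and 30.5 CPM in CONTROL and at 40.3, 48.1, 37.2, 48.5 and 38.8 CPM in FR1 (log2 1.07 ± 0.20, adjusted p = 0.0117). PAIP2B, an inhibitor of translation that binds the poly(A)-binding protein, was at 7.44, 7.41, 9.88, 4.44 and 1.78 CPM in CONTROL and at 19.0, 24.5, 19.3, 17.0 and 18.6 CPM in FR1. The groups did not overlap in any of these genes. PAIP2B and DOPEY2 rose by 1.67 ± 0.31 and 1.33 ± 0.25 on the log2 scale (adjusted p = 0.0117 and 0.0127).

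Other genes with full separation and lower levels in FR1 were the complement protease CFD, the stress gene GADD45A, the glucose-6-phosphate transporter SLC37A1, PRR5, a subunit of the kinase complex mTORC2, and PRR15. CFD was at 68.8, 265, 849.8, 387 and 82.2 CPM in CONTROL and at 27.7, 36.3, 54.9, 31.9 and 56.6 CPM in FR1. GADD45A was at 42.4, 41.2, 117, 235 and 35.6 CPM in CONTROL and at 23.8, 17.9, 13.9, 21.9 and 18.6 CPM in FR1. CONTROL_3 was the highest library for CFD and CONTROL_4 for GADD45A, and CONTROL_5 was among the controls nearest to FR1 for both. They were called at -2.99 ± 0.52 and -2.29 ± 0.43, and at -2.28 without CONTROL_3 and -1.59 without CONTROL_4, both still called. SLC37A1 fell by 1.27 ± 0.24 and PRR15 by 2.89 ± 0.51 (adjusted p = 0.0117 and 0.011), PRR15 being at -2.01, still called, without CONTROL_4.

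Lumican and biglycan rose among the matrix genes of the stroma. Of 27 collagen and proteoglycan genes 24 were positive, 2 rose and 0 fell, with a median of 0.76, and 0.609% of all genes tested rose. LUM, the proteoglycan lumican, was at 75.1, 159, 67.3, 131 and 254 CPM in CONTROL and at 349, 448, 264, 258 and 388 CPM in FR1, without overlap (log2 1.31 ± 0.34, adjusted p = 0.0455). BGN, biglycan, was at 36.0, 43.5, 41.8, 102 and 112 CPM in CONTROL and at 233, 112, 145, 196 and 148 CPM in FR1 (log2 1.31 ± 0.34, adjusted p = 0.0442). CONTROL_5 and FR1_2 met for BGN. Neither call held without CONTROL_1, CONTROL_3 or any 1 FR1 library, LUM was also lost without CONTROL_4 and BGN without CONTROL_2, and with size factors by relative log expression 0 members were called. LUM was also the 1 called marker of 12 for stromal fibroblasts, of which 11 were positive. SLC27A1, a fatty acid transporter, rose by 0.75 ± 0.15 (adjusted p = 0.015), and SLCO3A1, an organic anion transporter, by 1.51 ± 0.27 (adjusted p = 0.011), the 2 higher members of 24 nutrient transporters, of which 2 others, SLC2A1 and FABP3, fell and 17 were negative, with a median of -0.50. The glucose transporter SLC2A1 was called lower at -3.85 ± 0.94 and was at -0.76, not called, without CONTROL_3, where FABP3 was at -1.89 and not called either. CONTROL_3 stood at 3391 CPM for SLC2A1 while the 4 other controls ranged from 54.4 to 143 CPM.

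Antigen presentation and energy genes were called lower in part. All 30 antigen presentation genes tested and all 14 oxidative phosphorylation genes tested had a negative value, with medians of -0.81 and -0.53. Of these, 3 of 30 and 2 of 14 fell, beside 1.97% of all genes tested. The oxidative phosphorylation list named 24 genes, and UQCRC1, CYC1, COX4I1 and ATP5F1A were among those not found by name in the count table. PSMB10, an immunoproteasome subunit, was at 40.5, 26.7, 75.3, 99.3 and 51.6 CPM in CONTROL and at 12.2, 14.8, 27.7, 15.2 and 24.3 CPM in FR1 (log2 -1.64 ± 0.30, adjusted p = 0.0117). CONTROL_2 and FR1_3 met, and the call held in every run with 1 library left out. SDHB, a subunit of respiratory complex II, was at 119, 91.0, 135, 64.7 and 81.8 CPM in CONTROL and at 58.0, 52.5, 61.0, 56.4 and 66.3 CPM in FR1 (log2 -0.74 ± 0.16, adjusted p = 0.0216). CONTROL_4 lay inside the FR1 range for SDHB, which was not called without CONTROL_3, FR1_1, FR1_2 or FR1_4. Without CONTROL_3 and CONTROL_4 the antigen presentation median was -0.086 with 0 called, and the oxidative phosphorylation median -0.63 with 1 called.

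Of 31 interferon response genes 1 fell, UBA7, beside 1.97% of all genes tested, and 29 were negative, with a median of -0.90. The median was -0.33 without FR1_1 and FR1_4. Of 26 cytokine and chemokine genes 2 fell, IL1A, an alarm cytokine, and the chemokine CXCL16. IL1A was at 0.314, 20.2, 22.9, 3.84 and 0 CPM in CONTROL and at 0.048, 0.0336, 0.131, 0.198 and 0.082 CPM in FR1, and CXCL16 at 53.6, 221, 192, 126 and 109.8 CPM in CONTROL and 9.38, 26.3, 62.9, 9.2 and 23.2 CPM in FR1. CONTROL_2 and CONTROL_3 were highest for both. CONTROL_5 had no IL1A counts and lay below FR1, and FR1_3 exceeded the lowest control for CXCL16, which was at -3.04 without FR1_3. Immediate early and heat shock genes, which also respond to handling of tissue, had a median of -1.10 with 3 of 23 lower, and 0 called without CONTROL_3. That median was 0.073 without CONTROL_2, CONTROL_3 and CONTROL_4.

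Receptors and other genes with a place in early pregnancy that did not pass are given as values. ESR1 was at 273, 206, 98.2, 379.8 and 192 CPM in CONTROL and at 319, 361, 263, 325 and 259 CPM in FR1 (log2 0.41 ± 0.28), and the progesterone receptor PGR at 45.8 ± 41.4 CPM (SD, n = 5) in CONTROL and 30.1 ± 8.71 CPM in FR1 (log2 -0.60 ± 0.46). For both the FR1 values lay within the wide range of the controls. PTGS2, the inducible cyclooxygenase of prostaglandin synthesis, was at 19.6, 341, 414, 7.71 and 7.36 CPM in CONTROL and at 0, 3.43, 13.5, 0 and 1.61 CPM in FR1 (log2 -5.40 ± 1.72, adjusted p = 0.0897). FR1_1 and FR1_4 had no PTGS2 counts, and without FR1_3 the value was -6.94. FOXP3, the transcription factor of regulatory T cells, was at 0.545, 0.716, 1.1, 0.86 and 0.417 CPM in CONTROL and at 1.37, 1.18, 1.48, 2.04 and 1.97 CPM in FR1 (log2 1.14 ± 0.39, adjusted p = 0.113). Its groups did not overlap, at levels near 1 CPM. The growth factor VEGFA was at -2.03 ± 0.62, or -1.37 without CONTROL_3, and the oxytocin receptor OXTR at -0.61 ± 0.85, the latter turning to 0.11 by limma-voom and 0.80 without CONTROL_2. IDO1 and CXCL8 were at -4.49 ± 1.57 and -2.27 ± 1.41, and at -1.12 and -0.39 without their highest controls, CONTROL_3 and CONTROL_4. IL1B and CSF2 had too few counts to be tested.

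Marker lists of other cells held few calls. Smooth muscle markers summed to 1332 to 37000 CPM in CONTROL and 4563 to 33130 CPM in FR1, with 0 of 11 called and 0 at an unadjusted p below 0.05. Endothelium (12 tested), macrophages (9), T and NK cells (15), mast cells (5) and ciliated cells (15) held 0 calls by edgeR, with 1, 4, 3, 2 and 1 members at an unadjusted p below 0.05. DESeq2 called 1 of the T and NK cell genes and 0 in the other 4 lists. The macrophage sum was 160, 85.0, 370, 504 and 117 CPM in CONTROL and 72.7 to 206 CPM in FR1, so CONTROL_3 and CONTROL_4 alone lay above FR1. The neutrophil sum was 21.4, 46.8, 130, 143 and 24.6 CPM in CONTROL and 12.6 to 29.2 CPM in FR1. CONTROL_3 and CONTROL_4 were thus far above FR1, while CONTROL_1 and CONTROL_5 lay inside its range. The neutrophil collagenase MMP8 was the 1 of 9 members that fell (-6.29 ± 1.49, adjusted p = 0.0303, and -5.23 without CONTROL_2). MMP8 was highest in CONTROL_2 at 32.5 CPM, and CONTROL_1, at 0.105 CPM, lay inside the FR1 range. Of 14 sperm and testis genes 6 had enough counts to be tested and 0 were called by edgeR or DESeq2, with 0 at an unadjusted p below 0.05. Of the 8 untested ones, PRM1 and TNP1 had 0 counts in all 10 libraries, and LDHC, a testis lactate dehydrogenase, had 2, 6, 7, 0 and 4 counts in FR1 and 1, 0, 0, 0 and 0 in CONTROL. SPACA1 (11 counts), ACR (4), PRM2 (2) and ODF1 (3) were seen in 1 FR1 library each and in no CONTROL library, and TNP2 had 9, 0, 8, 0 and 14 counts in CONTROL and 0, 10, 0, 5 and 0 in FR1. Of 11 early embryo genes 6 were tested and 0 called by edgeR, with a median of -0.74. At an unadjusted p below 0.05 1 was higher and 1 lower. SALL4 was at 3.13 and TEAD4 at -1.65, neither called. Among untested embryo genes POU5F1 had 0 counts in all 10 libraries, SOX2 had 0, 2, 1, 0 and 7 in FR1 and 0 in every CONTROL library, and CDX2 and LIN28A were seen in CONTROL_3 alone, at 9 and 6 counts. The counts of the untested sperm and embryo genes are too low for a comparison and are named after they were seen. With a smooth muscle score as covariate edgeR called 356 genes higher and 627 lower, and 9 of the 25 folding genes fell. The part of the other cell types in the results above was not tested.

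**Figure D4:**
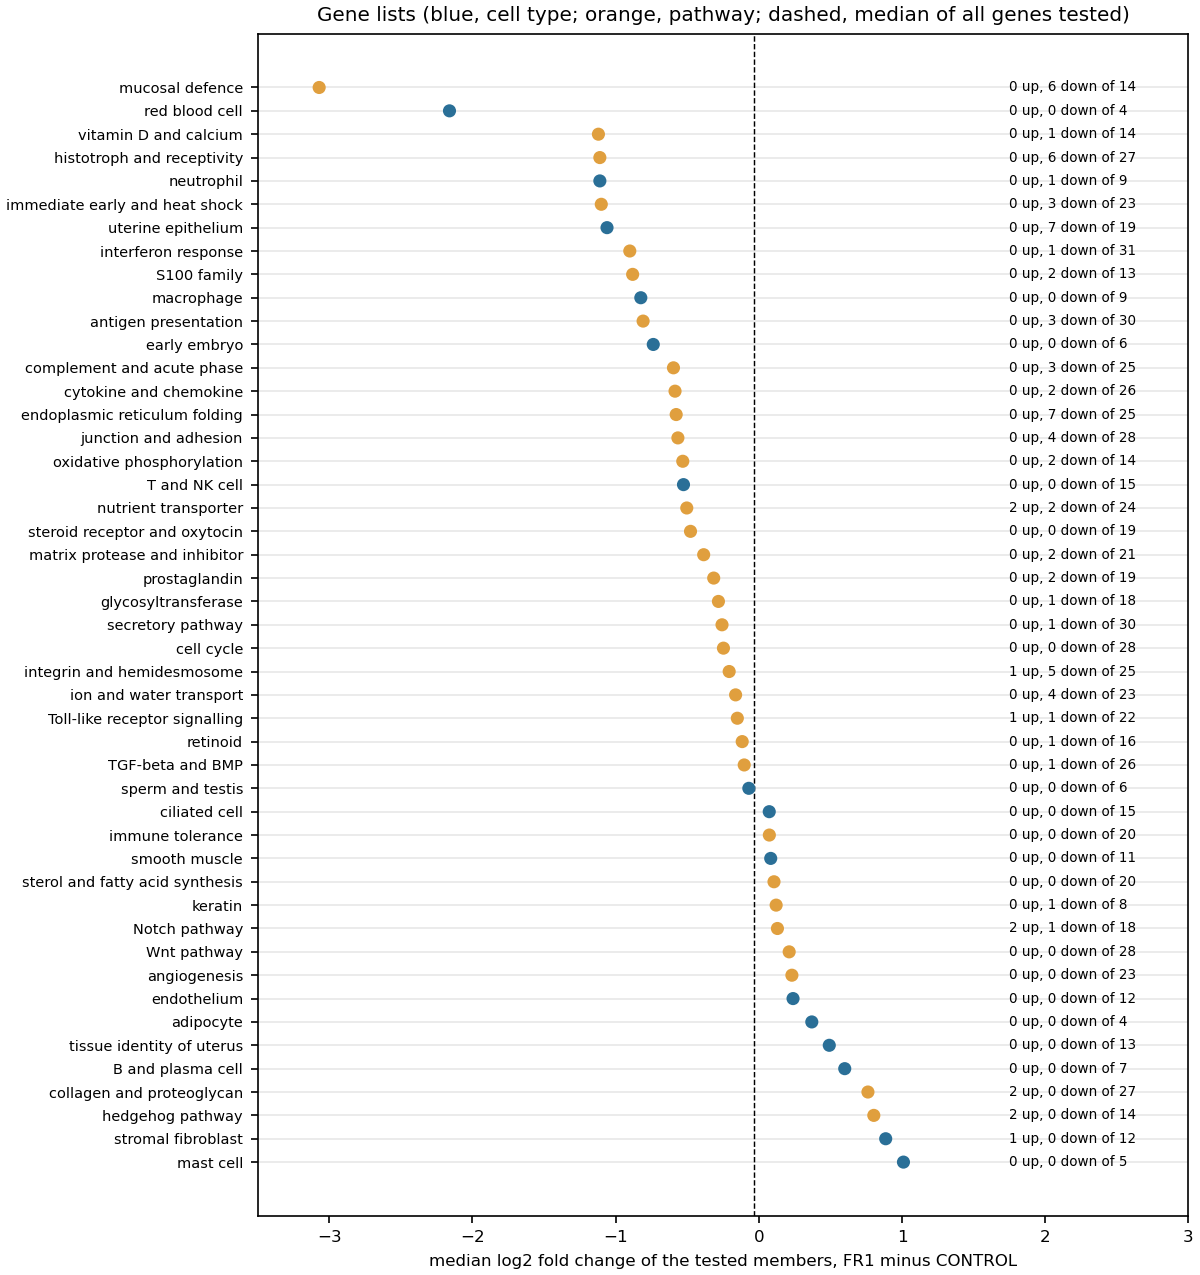
Median log2 fold change, FR1 minus CONTROL, of the tested members of 47 gene lists (blue, cell types; orange, pathways), with the number of members called higher and lower at right. The dashed line is the median of all genes tested, -0.034; mucosal defence lies furthest left at -3.07 and the mast cell list furthest right at 1.01.

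FR2 and FR3 were set against the same 5 controls, so their values are given beside those of FR1 and not counted as further evidence. Against CONTROL 5.51% of genes tested were called in FR2 and 4.27% in FR3. For FR1, FR2 and FR3 in that order HSPA5 was at -1.09 ± 0.16, -0.91 ± 0.16 and -0.72 ± 0.16, and the folding list had medians of -0.58, -0.50 and -0.32. TRIL was at 3.95 ± 0.59, 4.09 ± 0.59 and 3.42 ± 0.58, GLI1 at 2.82 ± 0.50, 2.72 ± 0.50 and 2.52 ± 0.50, and KRT18 at -1.38 ± 0.22, -1.47 ± 0.22 and -0.90 ± 0.22. The interferon list had medians of -0.90, -1.03 and 0.15. Whether FR1 itself differs from the other inseminated groups was tested directly, as FR1 minus the mean of FR2 and FR3. That test called 0 of 17745 genes (0%) by edgeR, with 486 at an unadjusted p below 0.05, 1 gene by DESeq2 and 0 by limma-voom. DOCK8 was 0.90 ± 0.38 higher in FR1 than in that mean on the log2 scale (unadjusted p = 0.0294). HSP90B1 was at -0.32 ± 0.13 (unadjusted p = 0.019), HSPA5 at -0.28 ± 0.14, CXCL16 at -1.19 ± 0.54, SNCAIP at 0.19 ± 0.37 and KRT18 at -0.19 ± 0.19. A test that does not pass leaves differences larger than these errors possible.

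**Figure D5:**
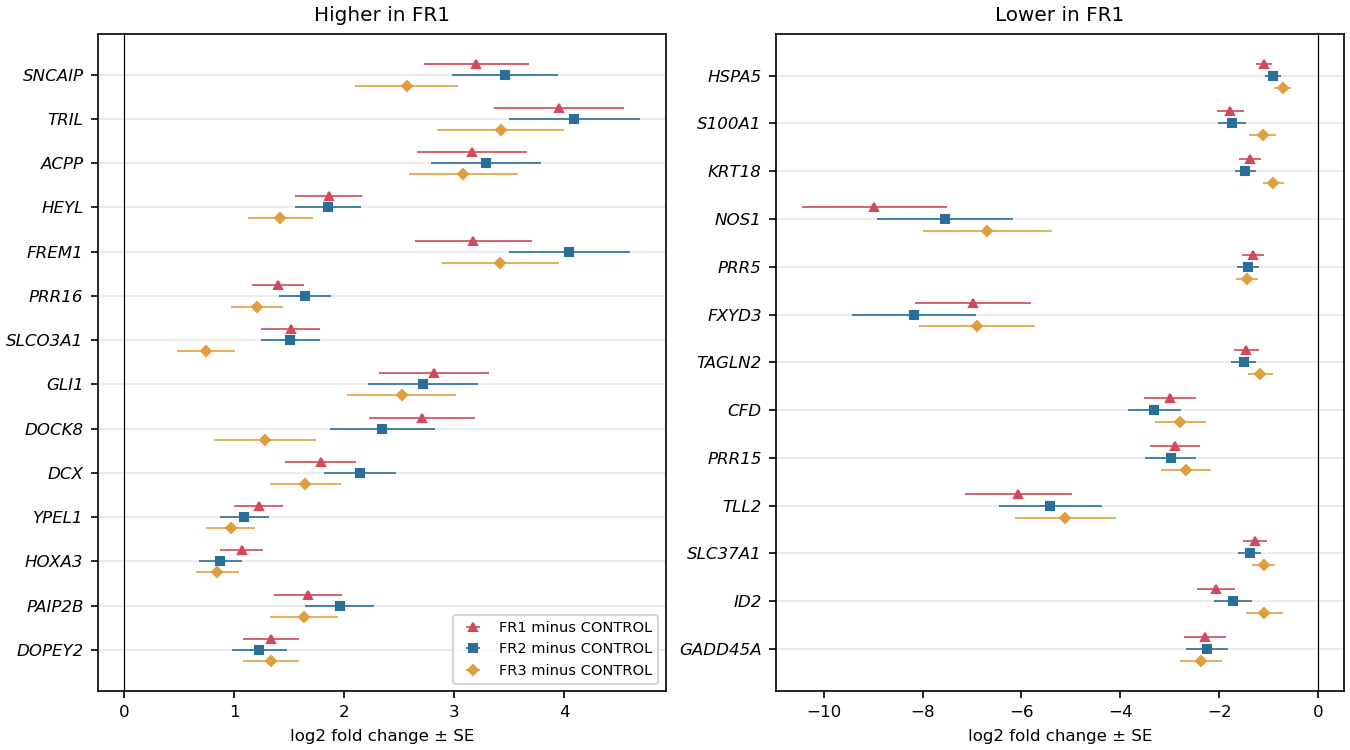
Log2 fold changes (points) with their standard errors (bars) for the same 27 genes in FR1 (red triangles), FR2 (blue squares) and FR3 (orange diamonds), each minus the same CONTROL libraries. The points of the 3 groups lie on the same side of 0 for every gene shown; they share their controls and are not independent.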

How the data were processed

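Poly-A RNA of uterine tissue from 20 sows was sequenced as paired reads. The authors deposited 1 table of estimated counts (87.2% of values are whole), with CASAVA, STAR 2.7.9a and Salmon 1.10.1 named in the submitters' processing notes. The genome build, annotation and strand setting are not given in the sources used here, and the labels' protocol names both a directional and a non-directional library, so antisense, overlapping and near-identical genes are uncertain. Of 30369 rows, 24 name no gene (0.0036 to 0.0133% of counts) and were left out. Of 30345 gene IDs, 30328 have the same symbol in a RefSeq table of Sscrofa11.1, used for names only. Columns give the group and a number from 1 to 5, not the sow.

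Counts were rounded, filtered with edgeR's filterByExpr (17745 genes tested) and scaled by TMM. All 20 libraries entered 1 model of 4 group means (16 residual degrees of freedom), fitted with edgeR 4.0.16 (robust quasi-likelihood, R 4.3.3). Tests were two-sided, with Benjamini-Hochberg adjustment over all genes tested and calls at an adjusted p below 0.05. The SE is the size of the log2 fold change over the root of F, and the fold change compares mean counts, so 1 high library can set it. Alternatives used DESeq2 1.42.0, limma 3.58.1, other filters and thresholds, a smooth muscle covariate and fewer libraries. The code was tested on simulated data with the same spread in all groups. That run does not cover the wider spread among CONTROL libraries. The p-values set the difference between groups against the spread between sows within groups, estimated in the main model over all 20 libraries.

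Named genes were the 15 higher and 15 lower genes with the smallest p among calls with a log2 change of at least 1 and no overlap (LOC names left out), up to 4 called members of each list (the 2 with the smallest p where none was called) and a panel of 23, 127 in all. Some of these genes are not reported here. The 47 lists held 902 genes, of which 803 were tested, with 4 duplicate rows set aside for the row with the highest mean. Members and lists were chosen with earlier results of these data known.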

Additional observations from a re-analysis of the deposited data

Results flagged for a closer look

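In each group of 5 libraries the highest or lowest value was called apart when its gap to the next exceeded 0.71 of the group's range. Of 254 checks of a named gene in a group 12 did so, and chance gives about 12.7. Values are log2 CPM. Among CONTROL libraries, S100A2 was low in CONTROL_5 at 4.41. In CONTROL_3, SLC2A1 was high at 11.73, CD14 at 5.86 and POU2AF1 at 0.78. HSD11B1, an enzyme that activates glucocorticoids, was high in CONTROL_4 at 5.90. Among FR1 libraries, FR1_3 was low for IER3 at -0.029, for FABP4 at -0.094 and for OXTR at 0.57. TEAD4 was high in FR1_4 at 2.7. FR1_5 was low for the globin HBB at 4.36 and for the ciliary gene HYDIN at 3.14, and high for POU2AF1 at 1.103. S100A2, SLC2A1 and IER3 were called between FR1 and CONTROL and the other 8 genes were not.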

How the results depend on the processing

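No paired analysis was run, since each library came from a different sow and the labels state no pairing. Counts are given as higher, lower and called without overlap, against 108, 350 and 196. DESeq2 gave 365, 1085 and 356. Limma-voom gave 65 lower and 125 without overlap, and with a spread per group 4, 19 and 17. With no filter 62 were higher. Adjusted p thresholds of 0.1 and 0.01 gave 317, 848 and 321, and 6, 12 and 15. The smooth muscle covariate gave 356 higher and 627 lower. Leaving out 1 library gave 31 to 475 higher, 68 to 899 lower and 70 to 792 without overlap. The following were chosen after seeing the data: DESeq2 on the 10 libraries (169 higher), limma-voom on them (0, 0 and 0) and edgeR on them without robust estimation (0, 0 and 0). EdgeR on the 10 libraries, and all 20 without FR1_1 and FR1_4, gave 0, 0 and 0, and the exact rank-sum test 0 higher and 0 lower. Without CONTROL_3 and CONTROL_4 the counts were 15, 36 and 42, and without CONTROL_2 as well 67 higher and 140 lower. The labels do not single out the libraries that were left out together. FR1 against the mean of FR2 and FR3 gave 1 call by DESeq2. The cause of these moves was not tested.

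Some log2 values turned sign. Without CONTROL_2, CONTROL_3 and CONTROL_4 they were 0.58 for FGF7, 0.50 for HSPA6, 0.16 for IER3, 1.12 for TLR4, 0.36 for SAA3, 0.14 for ADM, 0.39 for HSD11B1, -0.026 for FABP4 and 1.71 for OXTR. Without CONTROL_3 and CONTROL_4 ADM was at 0.28 and HSD11B1 at 0.098, and leaving out 1 library put HSD11B1 between -1.40 (CONTROL_5) and 0.0016 (CONTROL_4). Limma-voom put RRM2 at 0.39 and OXTR at 0.11, with a spread per group at 0.38 and 0.12, and on the 10 libraries at 0.38 and 0.10. Leaving out 1 library put PCNA between -0.47 (CONTROL_2) and 0.069 (CONTROL_1) and OXTR between -0.86 (CONTROL_5) and 0.80 (CONTROL_2). SMTN was at -0.11 without FR1_1 and FR1_4. The cause was not tested.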
